A study of Homo sapiens with 4 samples.

Results

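The genes described here are 10 that meet an anthracycline drug inside a cell: the topoisomerases TOP1, TOP2A and TOP2B, the adduct-removing phosphodiesterases TDP1 and TDP2, the efflux pumps ABCB1, ABCC1 and ABCG2, and the carbonyl reductases CBR1 and CBR3. They were chosen by gene symbol, and all 10 were found among the 58870 genes of each deposited table. The RNA of 4 libraries was taken from the human foreskin fibroblast line BJ. The 2 Dox libraries, titled as aged, came from cells given Dox at 250 nM. The 2 DMSO libraries, titled as young controls, came from cells of the same line that received DMSO, the solvent. Treatment took 24 hours, and by the series design senescence then developed over 10 days. The wording of the treatment protocol can also be read with those steps in the opposite order. The name Dox is not spelled out in the labels. The gene set is built around doxorubicin, the anthracycline often written that way. All groups share 1 cell line, and the labels do not say whether replicates were separate cultures, so the spread behind each p-value is that between these libraries alone and may be technical.

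Topoisomerases relieve the twist of DNA by cutting it, letting strands pass and sealing the cut, during which the enzyme is bound to the DNA end through a tyrosine. TOP1 cuts a single strand, while TOP2A and TOP2B cut both strands. TOP2A is made mainly in dividing cells before and during mitosis, and TOP2B is made in dividing and resting cells alike. Anthracyclines hold type II enzymes on the cut DNA. TDP1 and TDP2 split the bond between a trapped topoisomerase and DNA, TDP1 chiefly for TOP1 and TDP2 chiefly for the type II enzymes. ABCB1, also called P-glycoprotein or MDR1, ABCC1, also called MRP1, and ABCG2, also called BCRP, use ATP to pump drugs out of cells. CBR1 and CBR3 reduce the side-chain ketone of anthracyclines to an alcohol.

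In Dox libraries TOP1, TDP1, ABCC1 and ABCB1 rose and TOP2A fell, while TOP2B, TDP2, ABCG2, CBR1 and CBR3 did not pass the test. The largest fitted changes were those of ABCB1, 5.14-fold higher in Dox, and of TOP2A, which fell by 1.40 on the log2 scale. Thus 4 of the 10 members were higher, where 16.5% of the 16749 tested genes were higher, and 1 of the 10 was lower, where 13.8% of tested genes were lower, at a threshold of 0.05 on the edgeR adjusted p (quasi-likelihood test, Benjamini-Hochberg over all tested genes). In either direction 5 of the 10 were called, against 30.3% of tested genes. The median log2 fold change was 0.32 over the members and -0.0023 over all tested genes. In CPM (counts scaled to library size, with TMM factors), the Dox and DMSO libraries did not overlap for any of the 10 members, with 7 higher and 3 lower in Dox. Of all tested genes, 34.6% lay higher and 34.5% lay lower in Dox without overlap. In the deposited TPM the groups overlapped for 3 members, TOP2B, CBR1 and CBR3. All 10 members passed the filter on low counts, ABCB1 only through its Dox libraries, so a difference in ABCB1 was a condition of its being tested. The members together held 15423 and 15697 expected counts in the Dox libraries, against 12996 and 14723 in the DMSO libraries, out of 42880682 and 43429426 in Dox and 42744729 and 47798920 in DMSO. These are bulk libraries, in which fewer cells of a type and less RNA per cell cannot be told apart.

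**Figure D1:**
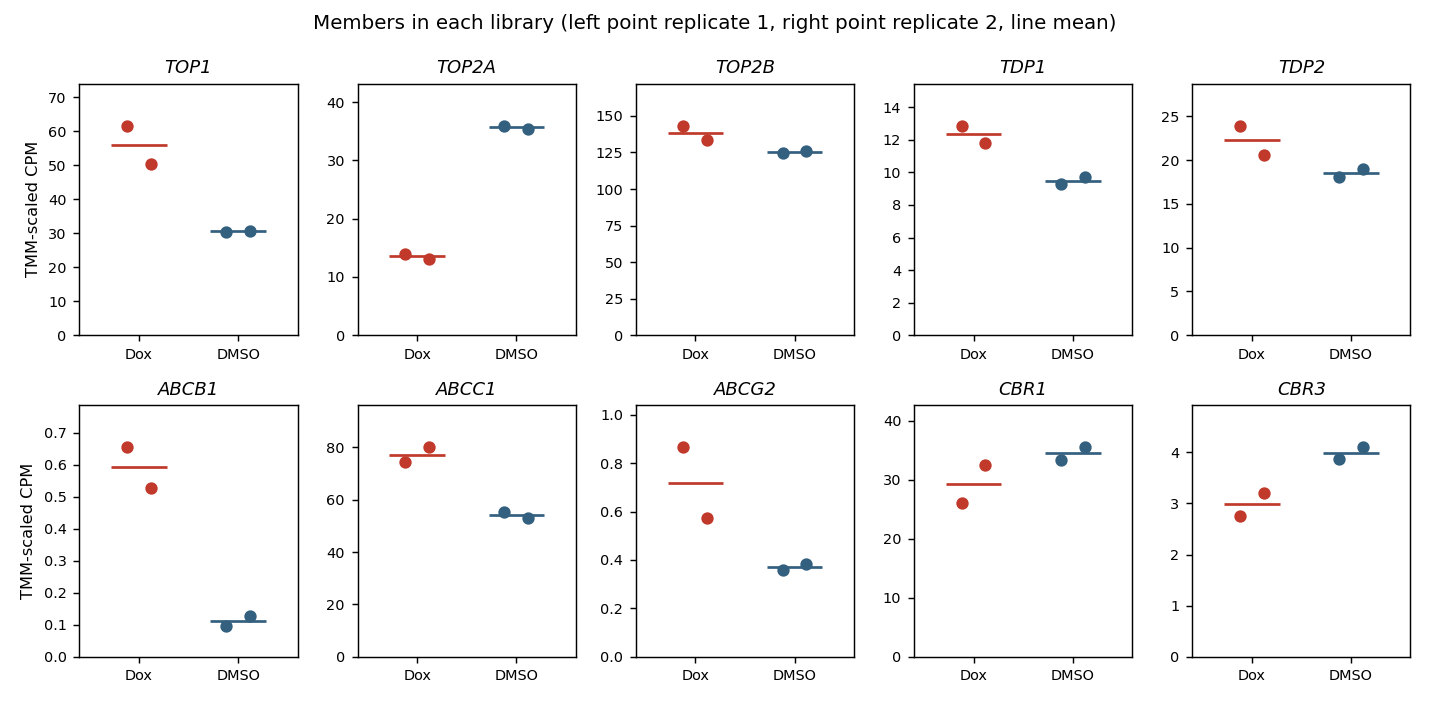
TMM-scaled CPM (vertical axis, from 0) of each of the 10 genes in the Dox and DMSO libraries; points are libraries, replicate 1 on the left, and lines are means of 2. TOP2A sits at 14.0 and 13.1 CPM in Dox, below 36.0 and 35.3 CPM in DMSO. The Dox libraries lie farthest apart from each other for ABCG2 (1.51-fold), CBR1 (1.25-fold), ABCB1 (1.24-fold) and TOP1 (1.23-fold).

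**Figure D2:**
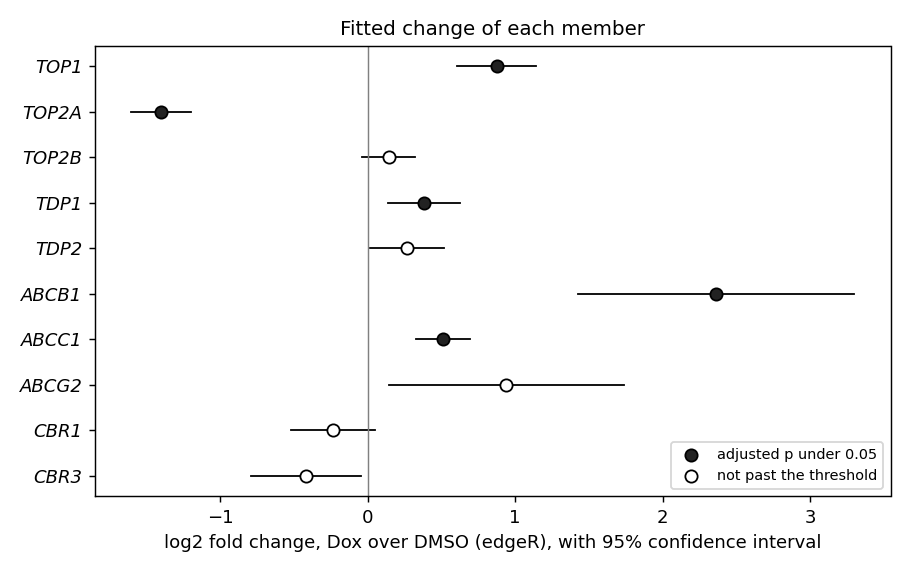
Fitted log2 fold change of Dox over DMSO (horizontal axis) with its 95% confidence interval for each gene; filled points passed an edgeR adjusted p of 0.05. The intervals of ABCB1 and TOP2A lie farthest from 0, and those of TOP2B and CBR1 include 0.

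TOP2A, the type II topoisomerase of dividing cells (chromosome 17, 40388516 to 40417950 in GRCh38, minus strand), had 597 and 594 counts in the Dox libraries, against 1501 and 1655 in the DMSO libraries. On the CPM scale these were 14.0 and 13.1 in Dox and 36.0 and 35.3 in DMSO, so the gap between the groups was many times the gap within either. TOP2A fell by 1.40 (log2 fold change, SE 0.08, 95% interval -1.60 to -1.19, edgeR adjusted p = 0.000198), and 6.32% of tested genes had a larger absolute change. Its relative TOP2B (chromosome 3, 25597905 to 25664907, minus strand) had 143 and 134 CPM in Dox and 125 and 126 CPM in DMSO. Both Dox libraries were slightly higher, but TOP2B did not pass (log2 fold change 0.14, SE 0.07, 95% interval -0.04 to 0.32, edgeR adjusted p = 0.198). By that interval the TOP2B fold lay between 0.974 and 1.25. TOP2B shares 28 exonic bases with RARB on the opposite strand. RARB held 174 and 185 counts in Dox and 452 and 443 in DMSO, and the sources used here do not say whether counting used strand.

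The promoter windows of both type II genes are shown because TOP2A passed the test and its paralog TOP2B did not: 250 bases before and 50 after the start of transcription, from RefSeq on GRCh38.p14, each read along its gene's strand. Capitals mark the CCAAT box and its reverse complement ATTGG, and the sequence TTTGAA and its reverse complement TTCAAA, which is one form of the cell cycle element CHR. No base fell in both motifs.
TOP2A, chr17:40417847-40418146, minus strand: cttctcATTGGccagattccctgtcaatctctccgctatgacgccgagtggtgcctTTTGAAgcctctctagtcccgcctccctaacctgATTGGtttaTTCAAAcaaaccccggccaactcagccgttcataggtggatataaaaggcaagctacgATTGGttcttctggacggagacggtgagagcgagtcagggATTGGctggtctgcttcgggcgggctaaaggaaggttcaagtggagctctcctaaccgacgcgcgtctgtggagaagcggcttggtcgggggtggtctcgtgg
TOP2B, chr3:25664858-25665157, minus strand: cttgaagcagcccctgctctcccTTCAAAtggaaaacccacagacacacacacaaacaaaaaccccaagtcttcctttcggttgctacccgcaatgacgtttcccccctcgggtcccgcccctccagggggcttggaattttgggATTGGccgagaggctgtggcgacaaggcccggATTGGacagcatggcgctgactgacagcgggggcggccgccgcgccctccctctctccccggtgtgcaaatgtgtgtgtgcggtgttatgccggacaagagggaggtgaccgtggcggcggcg
The TOP2A window held 4 CCAAT and 2 TTTGAA matches, counting both strands. The TOP2B window nearest its annotated start held 2 CCAAT matches and 1 TTTGAA match. CCAAT occurred in 34.6% and TTTGAA in 15.2% of all 35116 promoter windows of that length. Windows were found for 8 of the 10 members, and of the 14 member windows 3 held CCAAT and 4 held TTTGAA. For a list of 12 proliferation genes, 11 windows of 9 genes were found, and 11 held CCAAT and 6 held TTTGAA. A match of letters is a description, not a binding site.

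Of those 12 proliferation genes, 11 fell, 0 rose and 1 missed the threshold (median log2 fold change -1.30, against -0.0023 over all tested genes, of which 13.8% fell). With limma on log2(TPM + 1) 4 of them were lower and on log2(TPM + 0.1) 3, where 198 of 16749 tested genes were lower in each. Against a minimum fold of 1.5, 9 were lower, where 480 of 16749 were. CDK1, the kinase that drives mitosis, had 2.57 and 2.38 CPM in Dox and 8.67 and 9.32 CPM in DMSO and fell by 1.86 (SE 0.13, edgeR adjusted p = 0.00035). CCNA2, its S-phase cyclin, fell by 1.77 (SE 0.13), and CCNB1, its mitotic cyclin, fell by 1.25 (SE 0.10). The mitotic kinase AURKA, with 7.06 and 6.53 CPM in Dox and 8.51 and 8.34 CPM in DMSO, did not pass (log2 fold change -0.31, SE 0.11, edgeR adjusted p = 0.0836). By Euclidean distance of centred log2 CPM over the 4 libraries, 13411 tested genes averaging 1 CPM or more were ranked against TOP2A, and the nearest 5 were PCDH18, HMGB2, OLFML2A, CEBPG and SSPN, at distances of 0.0229 to 0.0647.

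TOP1, the enzyme that nicks a single strand (chromosome 20, 41028818 to 41124487, plus strand), had 61.7 and 50.3 CPM in Dox, against 30.5 and 30.6 CPM in DMSO. Both Dox libraries were far above DMSO, although they differed from each other by 1.23-fold. TOP1 rose by 0.87 (log2 fold change, SE 0.11, 95% interval 0.61 to 1.14, edgeR adjusted p = 0.00245), a 1.83-fold change. TOP1 was the 1 member whose expected counts were not whole, which RSEM gives where reads are shared out between genes. It missed the threshold against a minimum fold of 1.5 (edgeR glmTreat adjusted p = 0.0582).

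Within a library, TPM values, which are scaled by transcript length, show the balance of these genes without any scaling between libraries. TOP2A made up 6.38% and 8.54% of the summed TPM of TOP2A and TOP2B in Dox, against 19.2% and 17.9% in DMSO. The means were 7.46% ± 1.53 in Dox and 18.6% ± 0.91 in DMSO (SD, n = 2 each), a difference of -11.1 percentage points. The exact two-sided permutation test gave p = 0.333, the smallest that 2 libraries against 2 allow. By expected counts, with no length correction, the shares were 8.87% and 8.93% in Dox and 22.4% and 21.9% in DMSO. Over all 6 topoisomerase genes, TOP1 took 25.0% and 20.8% of the TPM in Dox, against 13.0% and 13.2% in DMSO. TOP2B took 53.9% and 53.8% in Dox and 52.8% and 54.9% in DMSO, where the groups overlapped; by expected counts its shares were 58.1% and 57.7% in Dox and 55.5% and 55.5% in DMSO, without overlap. In DMSO libraries TOP1 and TOP2A stood close together, at 2.41 and 2.48 TPM for TOP1 and 2.33 and 2.25 TPM for TOP2A. In Dox libraries they stood apart, at 4.30 and 5.63 TPM for TOP1 and 0.63 and 1.36 TPM for TOP2A.

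**Figure D3:**
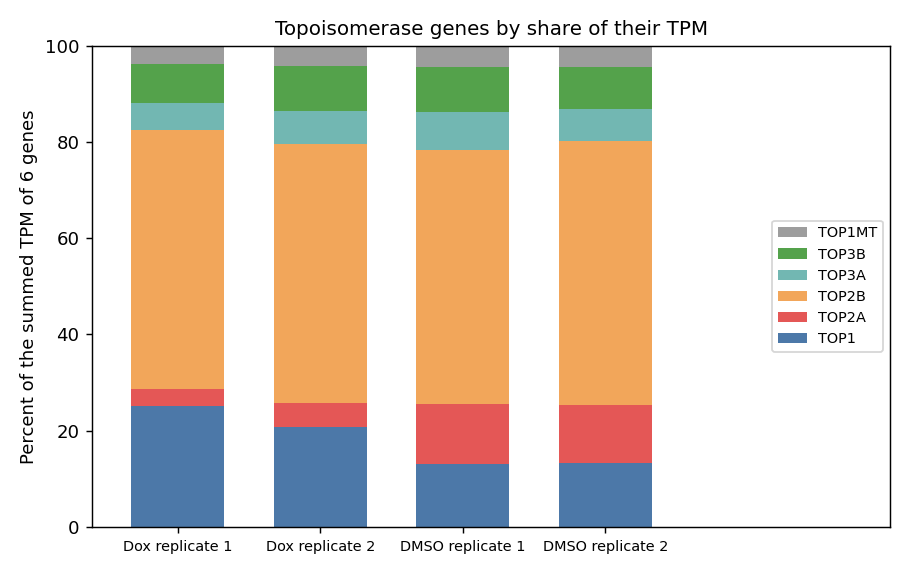
Percent of the summed TPM of 6 topoisomerase genes (vertical axis) in each library, stacked by gene. TOP2A is the thin segment of 3.67% and 5.03% in the Dox libraries, against 12.6% and 12.01% in the DMSO libraries, while TOP1 is wider in Dox and TOP2B is near 54% in both Dox libraries.

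Among the other topoisomerases and their partner proteins, 8 of 9 genes were tested, and 0 rose and 0 fell by edgeR, with 1 at an unadjusted p under 0.05 and 0 by DESeq2. TOP3A, a type I enzyme that works with the BLM helicase, had a log2 fold change of -0.10 (SE 0.11), TOP3B, which also acts on RNA, -0.26 (SE 0.14) and the mitochondrial TOP1MT -0.08 (SE 0.17). BLM itself had the largest change of the list, -0.83 (SE 0.34, edgeR adjusted p = 0.114), with 39 and 34 counts in Dox and 43 and 89 in DMSO. The median log2 fold change of the list was -0.15. Calls, mostly lower, appeared in this list when a Dox library was left out, where calls among all tested genes also rose. A lower call also appeared without DMSO replicate 1, where fewer of all tested genes were called lower. Each such fit has 1 library in an arm. With GC-trend offsets 3 of the list were lower, where 3871 of 16717 tested genes were lower. With no filter on low counts 1 was lower, where 3058 of 31057 genes were lower.

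Among the adduct phosphodiesterases, TDP1 (chromosome 14, 89954939 to 90044768, plus strand) had 12.9 and 11.8 CPM in Dox, against 9.27 and 9.71 CPM in DMSO. TDP1 rose by 0.38 (log2 fold change, SE 0.10, 95% interval 0.14 to 0.62, edgeR adjusted p = 0.0328). The call was a narrow one: it was lost without DMSO replicate 1 (edgeR adjusted p = 0.333), without DMSO replicate 2 (edgeR adjusted p = 0.237) and with DESeq2 (adjusted p = 0.0845). Its adjusted p spanned 1.86e-06 to 1.00 in 17 alternatives. TDP2 (chromosome 6, 24649977 to 24667033, minus strand) had 23.9 and 20.5 CPM in Dox, against 18.0 and 19.0 CPM in DMSO. Both Dox libraries were higher, Dox replicate 2 by little, and TDP2 did not pass (log2 fold change 0.27, SE 0.10, 95% interval 0.01 to 0.52, edgeR adjusted p = 0.103). Its log2 fold change without Dox replicate 2 was 0.37, in a fit with 1 Dox library and so no spread within Dox. TDP1 made 29.1% and 31.7% of the pair's TPM in Dox and 29.04% and 29.04% in DMSO.

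Of 22 genes that repair topoisomerase adducts and the breaks they leave, 2 rose, 3 fell and 17 missed the threshold (median log2 fold change -0.11), where 16.5% of all tested genes rose and 13.8% fell. RAD50, of the nuclease complex that trims blocked DNA ends, rose by 0.60 (SE 0.11, edgeR adjusted p = 0.00875), and ZNF451, a SUMO ligase that works with TDP2 on type II adducts, rose by 0.29 (SE 0.08, edgeR adjusted p = 0.0396). XRCC4, the scaffold of end joining, had 8.68 and 9.30 CPM in Dox and 13.6 and 14.6 CPM in DMSO and fell by 0.65 (SE 0.10, edgeR adjusted p = 0.00531), but not past the threshold without DMSO replicate 2 (edgeR adjusted p = 0.0549). RBBP8, which starts resection of DNA ends, fell by 0.35 (SE 0.09) and the nuclease MUS81 fell by 0.55 (SE 0.14). ZNF451, RBBP8 and MUS81 missed the threshold without DMSO replicate 1 (edgeR adjusted p = 0.342, 0.314 and 0.0731, in that order) and without DMSO replicate 2 (edgeR adjusted p = 0.441, 0.219 and 0.083). Fewer of the list passed when a DMSO library was left out and more when a Dox library was left out, as among all tested genes. Each such fit has 1 library in an arm.

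The 3 efflux pumps stood at very different levels. ABCC1 (chromosome 16, 15949577 to 16143074, plus strand) had 74.4 and 80.0 CPM in Dox, against 55.2 and 53.2 CPM in DMSO. The groups were well apart, and ABCC1 rose by 0.51 (log2 fold change, SE 0.08, 95% interval 0.33 to 0.69, edgeR adjusted p = 0.00448), a 1.43-fold change. It missed the threshold without DMSO replicate 1 (edgeR adjusted p = 0.0602) and without DMSO replicate 2 (edgeR adjusted p = 0.101). Its adjusted p spanned 2.87e-35 to 1.00 in 17 alternatives.

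ABCB1 (chromosome 7, 87503633 to 87713323, minus strand) was near the limit of detection, with 28 and 24 counts in Dox, against 4 and 6 counts in DMSO. Summed and scaled for depth, 52 Dox counts against 10 DMSO counts gave a ratio of 5.23, with an exact 95% interval of 2.63 to 11.5 that covers counting error only. ABCB1 rose by 2.36 (log2 fold change, SE 0.39, 95% interval 1.43 to 3.30, edgeR adjusted p = 0.00647), and 1.83% of tested genes had a larger absolute change. This gene met the filter on low counts only in its Dox libraries, so a difference was a condition of that test and rank. RUNDC3B, which lies across ABCB1 on the opposite strand with 0 exonic bases in common, held 19 and 12 counts in Dox and 7 and 5 in DMSO. The 5 genes nearest ABCB1 by the same distance were WDR63, NTNG1, ESM1, SCN2A and TNFAIP3, at 0.221 to 0.307.

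ABCG2 (chromosome 4, 88090264 to 88231322, minus strand) was also low, with 37 and 26 counts in Dox, against 15 and 18 counts in DMSO. Dox replicate 1 was 1.51-fold above Dox replicate 2, and ABCG2 did not pass (log2 fold change 0.94, SE 0.33, 95% interval 0.14 to 1.74, edgeR adjusted p = 0.0763). Its log2 fold change without Dox replicate 2 was 1.21, in a fit with 1 Dox library and so no spread within Dox. Per length, ABCC1 made 95.9% and 97.5% of the summed TPM of the 3 pumps in Dox, against 98.2% and 98.5% in DMSO. ABCB1 made 2.35% and 1.33% by TPM in Dox, against 0.356% and 0.376% in DMSO. By FPKM its shares were 2.39% and 1.33% in Dox, against 0.204% and 0.441% in DMSO. The TPM of ABCB1 in every library and its FPKM in DMSO are deposited to 1 significant digit, so those shares are coarse. Its effective length was 1999 and 2696 bases in Dox and 4587 and 3025 in DMSO, which both units carry. By expected counts, with no length correction, its shares were 0.862% and 0.653% in Dox, against 0.172% and 0.238% in DMSO.

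Of 21 other genes listed as transporters linked to anthracyclines, not all of which encode transporters, 19 were tested. Of these, 5 rose, 4 fell and 10 missed the threshold (median log2 fold change 0.14), beside 16.5% higher and 13.8% lower among all tested genes. ABCA1, the cholesterol exporter, had 126 and 127 CPM in Dox and 59.9 and 58.0 CPM in DMSO and rose by 1.10 (SE 0.07, edgeR adjusted p = 0.000246). SLC28A3, a concentrative nucleoside transporter, rose by 2.31 (SE 0.27, edgeR adjusted p = 0.00198), with 56 and 73 counts in Dox and 12 and 14 in DMSO. ABCA3, a lipid transporter, rose by 0.72 (SE 0.12), but not past the threshold without DMSO replicate 1 (edgeR adjusted p = 0.0713). ABCC3, an organic anion pump, fell by 0.48 (SE 0.07, edgeR adjusted p = 0.00466), the mitochondrial and porphyrin-linked ABCB6 fell by 0.71 (SE 0.14), and ABCB4, the phospholipid floppase and close relative of ABCB1, fell by 1.07 (SE 0.21, edgeR adjusted p = 0.0111). ABCB4 had 42 and 47 counts in Dox and 98 and 90 in DMSO, the opposite direction to ABCB1, and missed the threshold without DMSO replicate 1 (edgeR adjusted p = 0.0559). ABCC3 missed it without DMSO replicate 1 (edgeR adjusted p = 0.0912) and without DMSO replicate 2 (edgeR adjusted p = 0.0514). Fewer of these listed genes passed when a DMSO library was left out and more when a Dox library was left out, as among all tested genes. Each such fit has 1 library in an arm.

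The carbonyl reductases CBR1 and CBR3, which sit close together on chromosome 21, did not pass the test; both were lower in Dox on the CPM scale, while in TPM the groups overlapped. CBR1 (36069941 to 36073166, plus strand) had 26.1 and 32.5 CPM in Dox, against 33.4 and 35.5 CPM in DMSO. Dox replicate 2 lay just below DMSO replicate 1, and CBR1 did not pass (log2 fold change -0.24, SE 0.12, 95% interval -0.52 to 0.05, edgeR adjusted p = 0.179). CBR3 (36134912 to 36146566, plus strand) had 118 and 145 counts in Dox, against 161 and 192 in DMSO, or 2.76 and 3.20 CPM against 3.86 and 4.10 CPM. It did not pass either (log2 fold change -0.42, SE 0.16, 95% interval -0.79 to -0.04, edgeR adjusted p = 0.0903). Leaving out Dox replicate 2 gave a log2 fold change of -0.41 for CBR1 and -0.53 for CBR3, in a fit with 1 Dox library and so no spread within Dox. CBR1 averaged 10.03 ± 5.10 TPM in Dox and 9.93 ± 0.54 TPM in DMSO, and CBR3 averaged 1.22 ± 0.52 TPM in Dox and 1.40 ± 0.08 TPM in DMSO (SD, n = 2 each). CBR3 shares 493 exonic bases with the antisense gene CBR3-AS1, which held 58 and 46 counts in Dox and 48 and 47 in DMSO. CBR1 made 88.3% and 89.6% of the pair's TPM in Dox and 87.7% and 87.6% in DMSO, a difference of 1.31 percentage points (exact two-sided permutation p = 0.333, the smallest the design allows).

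Other enzymes that can reduce the anthracycline ketone rose in 4 of 9 tested cases and fell in 0, with 5 not passing (median log2 fold change 0.26, of 12 genes listed). Among all tested genes 16.5% rose and 13.8% fell. AKR1B1, aldose reductase, had 69.4 and 76.8 CPM in Dox and 37.8 and 38.8 CPM in DMSO and rose by 0.93 (SE 0.08, edgeR adjusted p = 0.000658). AKR1B10, its relative, had 13 and 21 counts in Dox and 3 and 2 in DMSO and rose by 2.71 (SE 0.53, edgeR adjusted p = 0.0117), and DHRS7, a short-chain reductase, rose by 0.39 (SE 0.08). AKR1B10 was tested only because its Dox libraries were high. DESeq2 called 2 of these enzymes. Fewer passed when a DMSO library was left out and more, some of them falling, when a Dox library was left out, as among all tested genes. Each such fit has 1 library in an arm. AKR1B10 missed the threshold without DMSO replicate 2 (edgeR adjusted p = 0.0772), and DHRS7 without DMSO replicate 1 (edgeR adjusted p = 0.247) or DMSO replicate 2 (edgeR adjusted p = 0.158).

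Of 9 tested enzymes that act on the quinone ring, or pass single electrons to it, 3 rose, 2 fell and 4 missed the threshold (median log2 fold change -0.11), beside the same 16.5% and 13.8% of all tested genes. XDH, xanthine dehydrogenase, had 7.01 and 8.33 CPM in Dox and 1.34 and 1.79 CPM in DMSO and rose by 2.28 (SE 0.19, edgeR adjusted p = 0.000631). The cytochrome b5 reductases CYB5R3 and CYB5R1 rose by 0.74 (SE 0.07) and 0.75 (SE 0.08). NQO1, the quinone reductase that passes electrons in pairs, had 84.9 and 89.0 CPM in Dox and 135 and 141 CPM in DMSO and fell by 0.67 (SE 0.07, edgeR adjusted p = 0.00152). Its relative NQO2 fell by 0.63 (SE 0.13, edgeR adjusted p = 0.0146), but not past the threshold without DMSO replicate 2 (edgeR adjusted p = 0.0668). More of the list fell when a Dox library was left out, as among all tested genes, and each such fit has 1 Dox library.

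**Figure D4:**
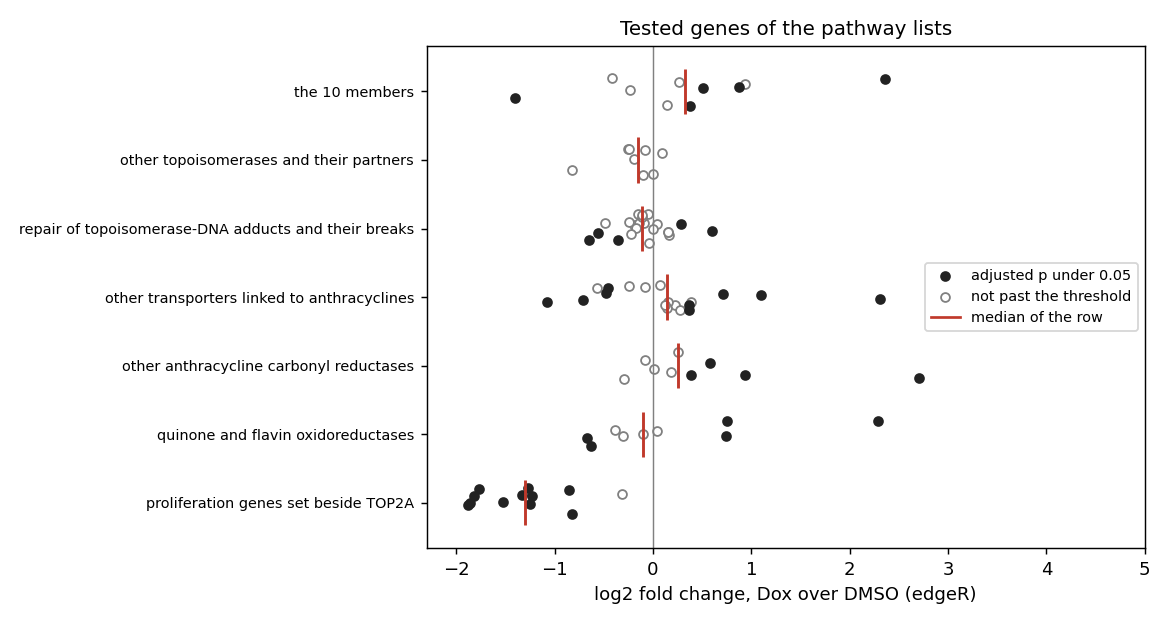
Log2 fold change of Dox over DMSO (horizontal axis) for each tested gene of the 10 members and of 6 related lists (rows); filled points passed an edgeR adjusted p of 0.05, and red bars are row medians. The proliferation row lies to the left of 0 with a median of -1.30, while the other rows spread to both sides.

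Per length, TOP2B and CBR1 held the top ranks among the 10 members in every library. They stood at 9.25 and 14.6 TPM for TOP2B and 6.42 and 13.6 TPM for CBR1 in Dox, and at 9.79 and 10.3 TPM for TOP2B and 9.55 and 10.3 TPM for CBR1 in DMSO. In DMSO these neighbours did not differ beyond the spread between libraries. TOP2A ranked 8 of 10 in both Dox libraries and 6 of 10 in both DMSO libraries, CBR3 ranked 7 in each library, and TDP1 ranked 6 in Dox and 8 in DMSO. ABCB1 and ABCG2 held the bottom ranks, ABCB1 at 0.08 and 0.08 TPM in Dox and 0.01 and 0.01 TPM in DMSO, and ABCG2 at 0.06 and 0.07 TPM in Dox and 0.04 and 0.03 TPM in DMSO.

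The Dox libraries differed from each other more than the DMSO libraries did. The chi-square per degree of freedom was 60.5 for the Dox pair and 2.40 for the DMSO pair, and the log2 ratio of Dox replicate 1 to Dox replicate 2 fell with transcript GC content (Spearman rho across 16717 genes = -0.60, against -0.02 for the DMSO pair). The 7 members of 38.8% to 48.5% GC were 1.07-fold to 1.51-fold higher in Dox replicate 1, TOP2A and TOP2B, of the lowest GC, at 1.07-fold each. The 3 members of 55.5% to 58.9% GC, ABCC1, CBR1 and CBR3, were 1.07-fold, 1.25-fold and 1.16-fold higher in Dox replicate 2. With an offset for the GC trend of each library, TDP2, ABCG2, CBR1 and CBR3 passed as well, in the directions given above, and 6 members were higher and 3 lower. Calls rose among all tested genes too, to 3917 higher and 3871 lower of 16717, from 2764 and 2309 of 16749.

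The cells expressed fibroblast genes at 23262 and 28609 summed CPM over 12 markers in Dox and 30890 and 30485 in DMSO. Of the 12, 5 rose and 3 fell, where 16.5% of all tested genes rose and 13.8% fell. The same shares stand beside the marker counts below, most of which rest on few tested genes. The 6 endothelial markers summed to 3.65 and 4.08 CPM in Dox and 3.98 and 4.76 CPM in DMSO, and 0 of 2 tested passed. The 6 immune markers summed to 26.5 and 28.6 CPM in Dox and 6.49 and 6.23 CPM in DMSO, 2 of 3 tested rose (CD68 and PTPRC, PTPRC having met the filter on low counts only in its Dox libraries), and CD3E was at 0 counts in every library. The 8 keratinocyte markers summed to 33.7 and 37.3 CPM in Dox and 18.6 and 17.7 CPM in DMSO, 2 of 3 tested rose (KRT17 and DSG3, DSG3 having met that filter only in its Dox libraries), and KRT5 and KRT1 were at 0. The 6 melanocyte markers summed to 33.6 and 30.4 CPM in Dox and 29.04 and 30.2 CPM in DMSO, 0 of 2 tested passed, and SOX10 was at 0. The 5 smooth muscle and pericyte markers summed to 206 and 224 CPM in Dox and 922 and 936 CPM in DMSO, and 5 of 5 fell. In every library most of the endothelial sum was TEK, most of the immune sum CD68 and most of the melanocyte sum MITF. KRT17 and KRT10 together made most of the keratinocyte sum. These sums therefore do not show that whole marker sets were expressed. The part of these markers in the members' results was not tested.

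**Figure D5:**
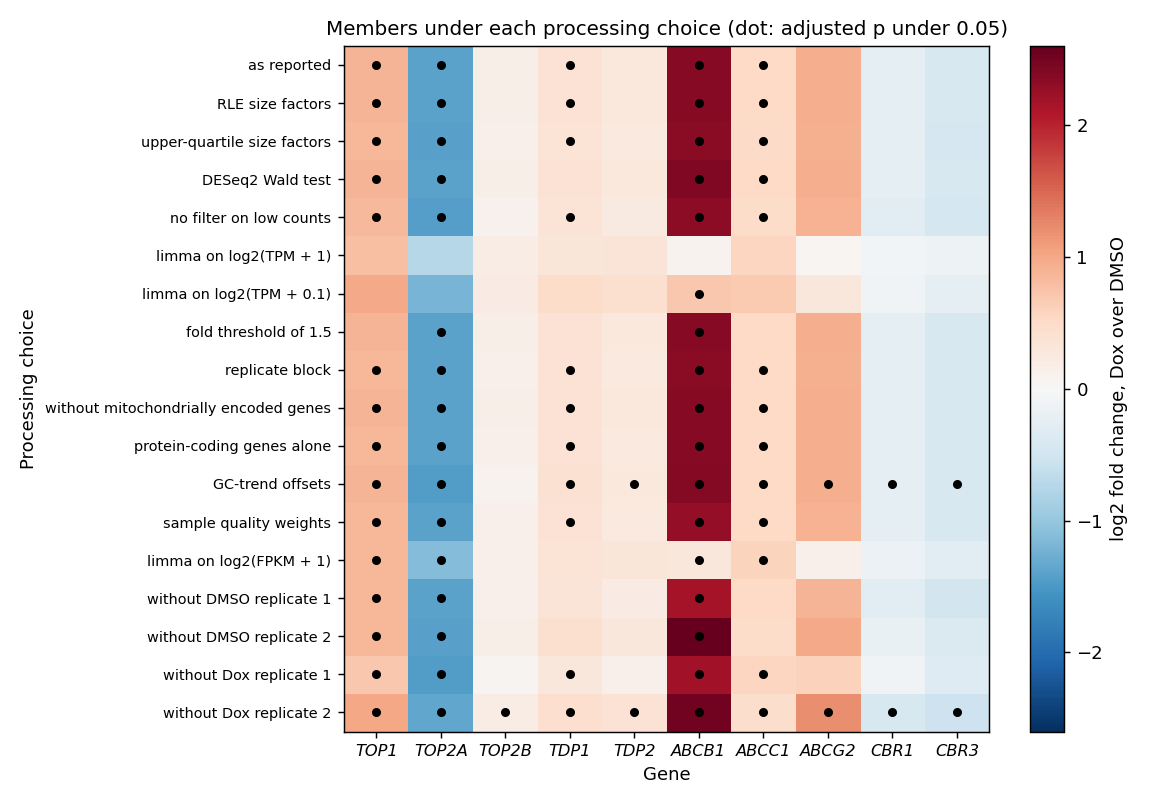
Log2 fold change of Dox over DMSO (colour) for each member (columns) under each processing choice (rows); a dot marks an adjusted p under 0.05. Every member keeps its colour side in all 17 alternatives shown, TOP2A loses its dot in the 2 TPM rows, and CBR1 and CBR3 gain one with GC-trend offsets and without Dox replicate 2.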

How the data were processed

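RNA-seq of 2 Dox and 2 DMSO libraries was analysed, grouped by their titles. Per the submitters' processing notes, cutadapt, STAR, Picard and RSEM were used with hg38; no version, order, strand setting or annotation release is named there. The deposited expected counts, per the file headers, are estimated reads per gene. The deposited TPM values are scaled by effective length to the same total in each library, and the deposited FPKM values by length and depth, per the file headers.

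Expected counts were rounded, filtered with edgeR's filterByExpr (minimum count 10, minimum total 15), TMM-scaled and fitted in edgeR (quasi-likelihood test, group as sole term, Benjamini-Hochberg adjustment); an SE is the log2 fold change divided by the square root of F. GENCODE 29 matched 99.5% of gene identifiers by Ensembl number and gave positions, 1-based; several versions differed from the files'. Markers and pathway lists were taken from general knowledge. Members, lists and tests were chosen with earlier results of these data known. Named list genes were up to 3 with the smallest adjusted p in each direction. AURKA, BLM, the topoisomerases TOP3A, TOP3B and TOP1MT, genes overlapping members, the rising markers and the markers that made up most of a sum were picked for naming with their values in view. Promoter sequences are from RefSeq. The software was DESeq2 1.42.0, edgeR 4.0.16 and limma 3.58.1 in R 4.3.3, with Python 3.11.15. The fit was tested on simulated data. The alternatives covered scaling, filtering, DESeq2, log2 TPM and FPKM, a fold threshold, a replicate block, GC offsets, quality weights and leaving out each library.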

Additional observations from a re-analysis of the deposited data

How the results depend on the processing

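None of the 170 recomputed log2 fold changes of the members (10 genes, 17 alternatives each) changed sign; 143 kept their side of the threshold, 18 lost it and 9 gained it. Against 4 members higher and 1 lower, limma on log2(TPM + 1) gave 0 and 0, limma on log2(TPM + 0.1) gave 1 and 0, the 1.5-fold threshold gave 1 higher, and GC-trend offsets gave 3 lower. Leaving out 1 library gave 2 to 7 members higher (2 without DMSO replicate 1, 2 without DMSO replicate 2 and 7 without Dox replicate 2) and 1 to 3 lower (3 without Dox replicate 2). The cause was not tested; where an arm held 1 library, that library was assumed to vary like the others. On expected counts, the TOP2A share of the TOP2 pair differed by -13.2 percentage points in place of -11.1, without the length correction. The labels do not say that replicate numbers pair cultures, so the numbers are not read as pairs. Deviations of same-numbered libraries had a correlation of 0.0383 across genes. That value cannot decide the pairing, because the Dox pair differed along transcript GC (Spearman rho -0.60) and the DMSO pair hardly did (-0.02). With a replicate block, 4 members were higher and 1 lower, and 2972 genes were higher and 2511 lower in all. Against 2764 higher and 2309 lower genes, GC-trend offsets gave 3917 and 3871, the 1.5-fold threshold 787 and 480, log2(TPM + 1) 596 and 198, log2(TPM + 0.1) 637 and 198, log2(FPKM + 1), chosen after seeing the data, 1946 and 1083, and leaving out a library 1368 to 4654 and 1000 to 5017. The median of all tested genes moved to 0.13 with log2(TPM + 0.1) and to 0.12 without a filter, above 0.1 in both. Of 204 recomputed list counts, 141 stayed within 1.5 times the reported count and 63 did not. ABCB1 at 4 to 28 counts and ABCG2 at 15 to 37 counts have wide counting intervals.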

Other observations

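The deposited units order the Dox libraries differently for the same genes. TPM was higher in Dox replicate 2 than in Dox replicate 1 for 9 of the 10 members and equal for 1, whereas CPM was lower in Dox replicate 2 for 7 and higher for 3. The deposited TPM was 0.247 and 0.379 of the FPKM in Dox replicates 1 and 2, against 0.287 and 0.293 in DMSO replicates 1 and 2. Small non-coding RNA genes and mitochondrial rRNA and tRNA took 86.7% and 79.8% of the TPM in Dox, against 83.8% and 83.7% in DMSO. Effective lengths also differed: for TOP2A they were 5424 and 3816 bases in Dox and 4314 and 4520 bases in DMSO. Its 597 and 594 counts in Dox replicates 1 and 2 stood beside 2.57 and 3.59 FPKM and beside 0.63 and 1.36 TPM, the last also carrying the TPM-to-FPKM scale above.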
